A study of Drosophila melanogaster with 12 samples.

Results

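The genes described here are 10 members of the *Drosophila* c-Jun N-terminal kinase (JNK) pathway, chosen by symbol from the 14162 genes of the count table. They are the ligand *egr*, its receptors *wgn* and *grnd*, the kinases *Mekk1*, *hep* and *bsk*, the transcription factors *Jra*, *kay* and *Ets21C*, and the phosphatase *puc*. All 10 were found in the table and all 10 passed the filter on low counts, which kept 10577 genes. The lowest count of any member in any sample was 139, for *Ets21C*.

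Poly(A) RNA of heads, taken from mated females raised at 29 °C, was sequenced in 4 groups of 3 samples. In AD + Yip7 and AD + Yip7∆S flies, the pan-neuronal driver nSyb-Gal4 expressed secreted Aβ42 together with the serine protease Yip7 or with Yip7∆S, a variant without the putative transmembrane domain. AD flies expressed Aβ42 alone, in the pathogenic Arctic form fused to the Argos signal sequence, and Control flies carried nSyb-Gal4 over w1118 with no UAS transgene. Every group therefore carried the driver, and both Yip7 groups carried Aβ42 as well. The labels give 10 days of age for 11 samples and 2 weeks for Control replicate 3, whereas the study's methods give 10 days throughout. Several calls against Control, but not every result that uses that sample, are therefore also given without it. Each sample was a pool of heads, and nothing in the labels ties the 3 samples of a group to separate crosses or days. The study's methods call the 3 samples biological triplicates but do not say what set them apart. The p-values then measure only the spread between these pools of heads.

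The JNK pathway is a stress-activated kinase cascade. In flies, the tumor necrosis factor (TNF) homolog Eiger, encoded by *egr*, binds the receptors Wengen and Grindelwald, and a relay of MAP kinase kinase kinases and the kinase Hemipterous activates Basket, the JNK. Basket phosphorylates Jun and Fos, which pair to form the transcription factor AP-1, and AP-1 in turn raises transcription of *puc*, which encodes a phosphatase that shuts Basket off. For this feedback, *puc* transcript is widely used as a readout of pathway activity, while kinase activity itself does not show in transcript counts. JNK signaling in the fly nervous system and gut is known for its part in wound repair, axon degeneration, oxidative stress and cell death.

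The samples held between 38064884 and 41737332 counts, and the members together took 0.0651% to 0.0887% of them. No pair of samples of a group matched within sampling noise, as the chi-square per degree of freedom was 20.36 or more. The counts of *yip7* itself were 5012 to 7300 in AD + Yip7, 3116 to 3633 in AD + Yip7∆S, 3963 to 6426 in AD and 0 to 253 in Control, so counts above those of AD marked neither Yip7 group. AD + Yip7 overlapped AD, and every AD + Yip7∆S sample was below every AD sample, without a call (log2 fold change -0.75, SE 0.63, adjusted p = 0.639). Genes of other tissues differed between the groups. The summed level of 7 midgut markers was 231.9 to 299.0 CPM (counts scaled to library size, with TMM factors) in AD and 4.61 to 9.85 CPM in Control. It was 5.59 to 86.9 CPM in AD + Yip7, where replicate 2 alone was above 10 CPM, and 5.16 to 12.1 CPM in AD + Yip7∆S. In these bulk samples, fewer cells of a type and less RNA per cell cannot be told apart.

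Between AD and Control flies, *puc* and *Mekk1* were higher in AD and the other 8 members did not pass the test. *puc* rose by 32.7% and *Mekk1*, which encodes a stress-responsive MAP kinase kinase kinase, rose by 28.3%. The core of the cascade, *hep* and *bsk*, and both receptors had no call, nor had the ligand. Called means an adjusted p under 0.05 (edgeR quasi-likelihood test, all 12 samples fitted together, Benjamini-Hochberg adjustment over the 10577 genes of a comparison). With 2 of 10 members called higher and 0 lower, the members were near the background of this comparison, in which 26.0% of all tested genes were called, 14.4% higher and 11.6% lower. At an unadjusted p under 0.05 there were 5 members, against 38.4% of all tested genes. DESeq2 on the 6 samples called 4 members higher and 1 lower. The share of all tested genes called in that setting is not given here, so this count has no background beside it.

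*puc* had 102, 101 and 88.6 CPM in the 3 AD samples, against 70.7, 71.2 and 77.7 CPM in the 3 Control samples. The lowest AD sample lay above the highest Control sample, and replicate 3 was the nearest to the other group on both sides. The log2 fold change was 0.41 (SE 0.12, 95% interval 0.15 to 0.67, adjusted p = 0.0242). The call was lost on leaving out certain samples, as the adjusted p was 0.0686 without AD replicate 1, 0.0633 without AD replicate 2, 0.0596 without Control replicate 1 and 0.0777 without Control replicate 2, while the log2 fold change stayed between 0.38 and 0.48 in all 21 alternative settings. Without Control replicate 3, the sample with the other labelled age, *puc* kept its call (0.45, adjusted p = 0.0467).

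*Mekk1* had 92.1, 84.7 and 87.1 CPM in AD, against 64.8, 71.2 and 69.6 CPM in Control. These groups did not overlap either, and the gap between the nearest samples was wider than the range within either group. Its log2 fold change was 0.36 (SE 0.10, 95% interval 0.14 to 0.58, adjusted p = 0.0189). Without AD replicate 1 the adjusted p was 0.0554, and it was 0.0548 without Control replicate 1 and also without Control replicate 3, at log2 fold changes of 0.33, 0.33 and 0.37. Beside *puc* and *Mekk1*, 22.8% of all tested genes had every AD sample above every Control sample.

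**Figure D1:**
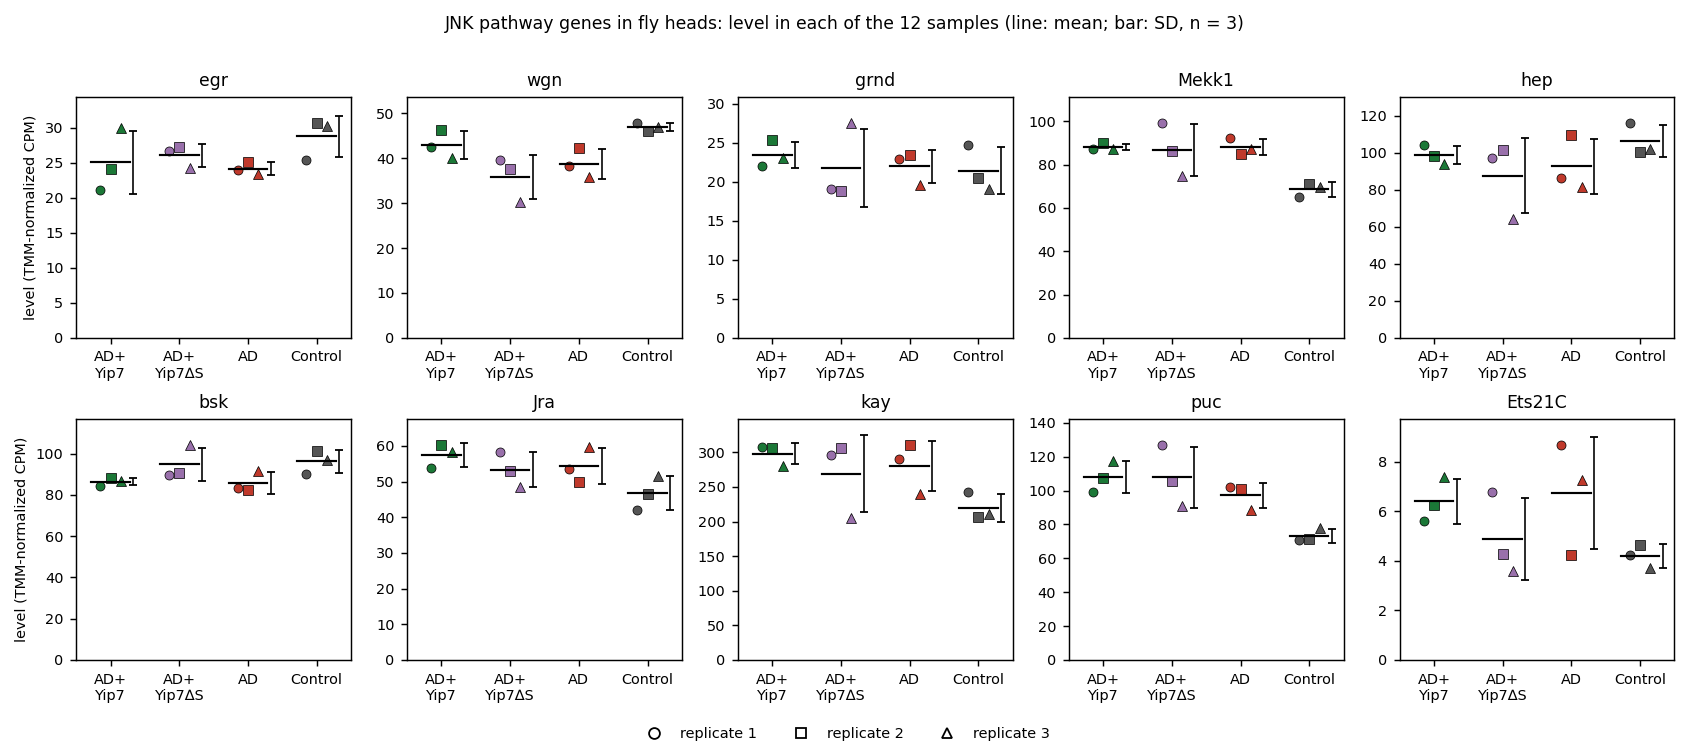
Level of each of the 10 genes in the 12 samples, in TMM-normalized CPM on linear axes that start at 0. Points are samples (circle, square and triangle for replicates 1, 2 and 3), lines are group means and bars are SD (n = 3). For *puc* and *Mekk1* the 9 samples of the 3 Aβ42 groups all lie above the 3 Control samples, whereas the groups overlap for *grnd* and *hep*.

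The ligand and a receptor lay on the other side. *egr* had 23.9, 25.2 and 23.4 CPM in AD, against 25.4, 30.7 and 30.2 CPM in Control, so every AD sample was below every Control sample, the nearest by a small gap. Its log2 fold change was -0.25 (SE 0.13, 95% interval -0.52 to 0.02, adjusted p = 0.159), which did not pass. *wgn* had 38.3, 42.3 and 35.7 CPM in AD and 47.9, 46.1 and 47.1 CPM in Control. The Control samples were close together and the AD samples were below all of them, at a log2 fold change of -0.28 (SE 0.11, 95% interval -0.52 to -0.04, adjusted p = 0.0792). *wgn* passed in 2 of 21 alternative settings. Groups that did not overlap, with AD lower, were found for 21.2% of all tested genes. *grnd*, which encodes the other receptor, spanned 19.5 to 23.4 CPM in AD and 19.0 to 24.7 CPM in Control, with a log2 fold change of 0.04 (95% interval -0.30 to 0.37). Opposite-strand exons of *kon* cover 13.1% of the *grnd* exons, and the strand setting of the counting is not given in the sources used here.

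The other kinases among the members had no call. *hep*, the JNK kinase, ranged from 81.5 to 110 CPM in AD and from 101 to 116 CPM in Control (log2 fold change -0.20, 95% interval -0.54 to 0.15). *bsk*, the JNK itself, ranged from 82.3 to 91.8 CPM in AD and from 90.3 to 101 CPM in Control (-0.17, 95% interval -0.36 to 0.03). Both intervals reach further below 0 than above it, and neither excludes 0.

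The transcription factors had positive estimates that did not pass in edgeR. The study counts *kay* and *Ets21C*, with *puc* and *Mekk1*, among the genes induced by Aβ42, from DESeq2 at q under 0.05. *kay*, which encodes Fos, had 291, 311 and 240 CPM in AD, against 242, 206 and 211 CPM in Control. AD replicate 3 lay just below Control replicate 1, so the groups overlapped, and the log2 fold change was 0.35 (SE 0.15, 95% interval 0.03 to 0.67, adjusted p = 0.0966). *kay* passed in 4 of 21 alternative settings, among them the fit without AD replicate 3 (0.46, adjusted p = 0.046). On leaving out a sample, its log2 fold change ran from 0.27 to 0.46 and its adjusted p from 0.0206 to 0.248. *Jra*, which encodes Jun, had 53.4, 49.8 and 59.8 CPM in AD and 41.99, 46.5 and 51.6 CPM in Control, with overlap between AD replicate 2 and Control replicate 3 (log2 fold change 0.22, 95% interval -0.01 to 0.45, adjusted p = 0.156). *Ets21C*, an ETS-domain factor that responds to stress, was the scarcest member. It had 8.67, 4.25 and 7.25 CPM in AD, against 4.23, 4.64 and 3.69 CPM in Control, and AD replicate 2 was at the level of the Control samples. The log2 fold change of 0.68 (SE 0.26, 95% interval 0.11 to 1.25, adjusted p = 0.0737) passed in 5 of 21 alternative settings, including the fit without AD replicate 2 (0.93, adjusted p = 0.0146). Without AD replicate 1 it fell to 0.46 (adjusted p = 0.248). DESeq2 also called *Ets21C*, on all 12 samples (adjusted p = 0.0382) and on the 6 samples (adjusted p = 0.0368). Exons of *nAChRbeta3* on the opposite strand cover 28.3% of the *Ets21C* exons, so with no strand given part of these reads could come from either gene.

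Markers of several cell types moved in the same comparison. All 6 tested midgut markers were called higher in AD. The summed level of 5 neuronal markers was 1665 to 2221 CPM in AD and 2676 to 2839 CPM in Control, with 2 of 5 called lower. Glial markers summed to 1323 to 1335 CPM in AD and to 1623 to 1902 CPM in Control, with 5 of 6 called lower, and hemocyte markers to 136 to 168 CPM in AD and to 208 to 403 CPM in Control, with 3 of 5 lower. Fat body markers summed to 55561 to 58066 CPM in AD and to 71573 to 77426 CPM in Control, with 3 of 5 called lower, and photoreceptor markers to 34851 to 39594 CPM in AD and to 40966 to 50361 CPM in Control, with 1 of 4 lower. Of 5 muscle markers, 0 were called. In AD + Yip7∆S, where the midgut markers summed to 5.16 to 12.1 CPM, *puc* was 91.0 to 127 CPM and *Mekk1* was 74.8 to 99.2 CPM. Neuronal, glial, photoreceptor and muscle markers there summed to less than in every Control sample, while hemocyte and fat body sums overlapped those of Control. The part of any of these markers in the changes of *puc* and *Mekk1* was not tested.

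Adding Yip7 to Aβ42 left the members without a call. Of the 10 members, 0 were called in AD + Yip7 vs. AD, against 1.81% of all tested genes, and 0 of 10 had an unadjusted p under 0.05 in edgeR, against 13.1% of all tested genes. DESeq2, on all 12 or on the 6 samples, also called 0 members. The groups overlapped for every member, whereas they did not for 20.8% of all tested genes, and the log2 fold changes ran from -0.07 for *Ets21C* to 0.15 for *puc*. *puc* had 98.9, 108 and 117 CPM in AD + Yip7, against 102, 101 and 88.6 CPM in AD, and the 2 groups overlapped. Its log2 fold change was 0.15 (SE 0.12, 95% interval -0.11 to 0.41, adjusted p = 0.666). *Mekk1* had 87.2, 89.8 and 87.1 CPM with Yip7 and its difference from AD was 0.00 (95% interval -0.22 to 0.22). The intervals were widest for *Ets21C*, at -0.63 to 0.49, and for *hep*, at -0.25 to 0.44, and a miss of the threshold does not show that these genes were alike. In the same comparison 3 of 5 fat body markers were called higher, with sums of 83975 to 95471 CPM in AD + Yip7 and 55561 to 58066 CPM in AD, and 1 of 6 tested midgut markers was called lower. The study itself reports that Yip7 did not further increase *kay*, *puc*, *Mekk1* and *Ets21C*. It also imaged TRE-dsRed, a reporter of AP-1 activity, in brains. That signal rose with Aβ42 and was reduced by Yip7 but not by Yip7∆S. Reporter fluorescence in brains is a different measure from transcript counts of heads.

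**Figure D2:**
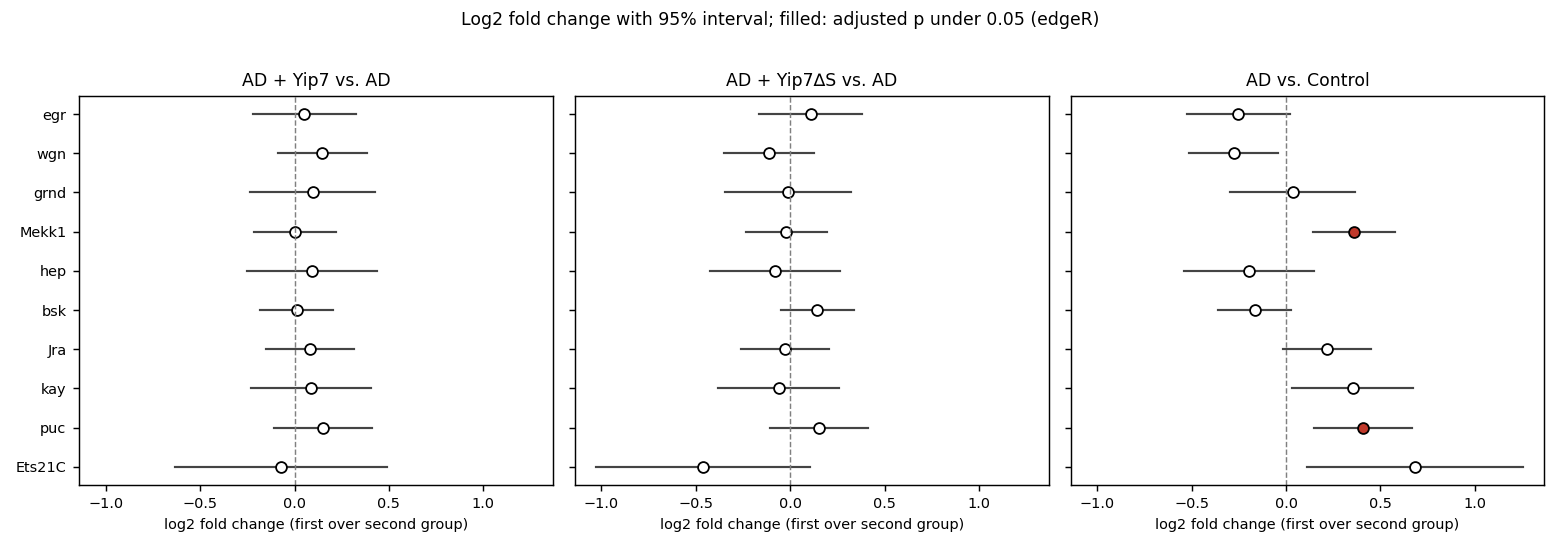
Log2 fold changes of the 10 genes with 95% intervals for AD + Yip7 vs. AD, then AD + Yip7∆S vs. AD, followed by AD vs. Control, the first group over the second. Filled points have an adjusted p under 0.05 (edgeR), which holds for *puc* and *Mekk1* in AD vs. Control. Every interval of the other comparisons includes 0.

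The truncated variant gave 0 calls among the members as well. In AD + Yip7∆S vs. AD, 0 of 10 members were called, against 1.85% of all tested genes, and 0 of 10 had an unadjusted p under 0.05, against 15.1% of all tested genes, and DESeq2 also called 0. Every member overlapped between these groups, and 18.0% of all tested genes did not. *puc* had 127, 106 and 91.0 CPM in AD + Yip7∆S, against 102, 101 and 88.6 CPM in AD, a log2 fold change of 0.15 (SE 0.12, 95% interval -0.11 to 0.41, adjusted p = 0.613). Replicate 1 of AD + Yip7∆S had the highest *puc* level of all 12 samples. The lowest estimate was that of *Ets21C*, with 6.77, 4.27 and 3.604 CPM in AD + Yip7∆S, against 8.67, 4.25 and 7.25 CPM in AD (log2 fold change -0.46, SE 0.26, 95% interval -1.03 to 0.11, adjusted p = 0.452). Among the kinases, *bsk* had the largest estimate, 0.14 (95% interval -0.05 to 0.34, adjusted p = 0.499). Of the markers, 5 of 6 tested midgut markers and 1 of 5 muscle markers were called lower in AD + Yip7∆S than in AD, and 1 of 5 fat body and 1 of 6 glial markers higher. Both comparisons with AD share the same 3 AD samples.

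Set directly against each other, the Yip7 variants gave no called member. In AD + Yip7 vs. AD + Yip7∆S, 0 of 10 members were called, and 0.0662% of all tested genes were. *puc* differed by 0.00 (SE 0.12, 95% interval -0.26 to 0.26). *wgn* had 42.5, 46.3 and 40.1 CPM in AD + Yip7, against 39.6, 37.6 and 30.2 CPM in AD + Yip7∆S, so the samples did not overlap, as for 8.27% of all tested genes in this direction. The log2 fold change of *wgn* was 0.26 (SE 0.11, adjusted p = 0.452), and it was the 1 member with an unadjusted p under 0.05, against 10.3% of all tested genes. *bsk* lay the other way, with 84.6 to 88.0 CPM in AD + Yip7 and 89.6 to 104 CPM in AD + Yip7∆S (-0.13, adjusted p = 0.651), and 8.58% of all tested genes had groups apart in that direction.

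Against Control, both Yip7 groups had the same called rises as AD, and these comparisons share the 3 Control samples with it. *puc* was higher in AD + Yip7 by 0.56 (SE 0.12, 95% interval 0.30 to 0.82, adjusted p = 0.00742) and higher in AD + Yip7∆S by 0.56 (SE 0.12, 95% interval 0.30 to 0.82, adjusted p = 0.00594). Both calls held in 21 of 21 alternative settings, with log2 fold changes of 0.50 to 0.62 with Yip7 and 0.43 to 0.66 with Yip7∆S. *Mekk1* was higher by 0.36 in AD + Yip7 (adjusted p = 0.0292) and by 0.34 in AD + Yip7∆S (adjusted p = 0.0321), calls that held in 15 of 21 alternative settings each. For *Mekk1*, leaving out any of the 6 samples of AD + Yip7 vs. Control ended the call (adjusted p of 0.0653 to 0.101), and in AD + Yip7∆S vs. Control it ended without AD + Yip7∆S replicate 1 (0.23, adjusted p = 0.123) or replicate 2 and without any Control sample. Between AD + Yip7 and Control, 2 of 10 members were called higher and 0 lower, against 9.13% and 5.44% of all tested genes (14.6% in either direction). For AD + Yip7∆S against Control, 2 were called higher and 1 lower, against 10.9% and 7.94% (18.9% in either direction).

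The lower member in AD + Yip7∆S was *wgn*, at a log2 fold change of -0.39 (SE 0.11, 95% interval -0.63 to -0.16, adjusted p = 0.0247). All 3 AD + Yip7∆S samples, at 39.6, 37.6 and 30.2 CPM, lay below the Control samples, at 47.9, 46.1 and 47.1 CPM, and replicate 3 was the farthest. Samples lay apart in this direction for 18.1% of all tested genes, and in the other, as for *puc* and *Mekk1*, for 19.0%. Without that replicate the log2 fold change was -0.29 (adjusted p = 0.0507), and without Control replicate 3 it was -0.39 (adjusted p = 0.0715). The adjusted p was 0.0645 without Control replicate 1 and 0.0557 without Control replicate 2. With Yip7, *wgn* was not called (-0.13, 95% interval -0.37 to 0.11), and its replicate 2 lay within the Control range. The AP-1 genes and *Ets21C* were apart from Control in AD + Yip7 without passing in the edgeR fit of all 12 samples. Of 21 alternative settings, *kay* passed in 7, *Ets21C* in 2 and *Jra* in 1. *kay* had 307, 306 and 280 CPM in AD + Yip7, against 242, 206 and 211 CPM in Control (0.44, 95% interval 0.12 to 0.76, adjusted p = 0.0651). *Jra* had 53.7, 60.2 and 58.4 CPM in AD + Yip7, against 41.99, 46.5 and 51.6 CPM in Control (0.30, 95% interval 0.07 to 0.53, adjusted p = 0.0849). *Ets21C* had 5.59, 6.25 and 7.37 CPM in AD + Yip7, against 4.23, 4.64 and 3.69 CPM in Control (0.61, 95% interval 0.04 to 1.18, adjusted p = 0.149). Every AD + Yip7 sample was above every Control sample for *puc*, *Mekk1*, *kay*, *Jra* and *Ets21C*, as for 21.3% of all tested genes. Below every Control sample, as for 18.6%, was *bsk* (84.6 to 88.0 CPM in AD + Yip7, 90.3 to 101 CPM in Control).

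Over the 9 samples with Aβ42 together, *puc* was 88.6 to 126.8 CPM, against 70.7 to 77.7 CPM in Control, and *Mekk1* was 74.8 to 99.2 CPM, against 64.8 to 71.2 CPM in Control. For these members all 9 samples were above all 3 Control samples, and 21.0% of all tested genes were apart in this way in either direction. *Jra* and *kay* were above every Control sample in 7 of 9, and *Ets21C* in 6 of 9. *wgn* was below every Control sample in 8 of 9, and *egr*, *hep* and *bsk* in 6 of 9.

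Replicates did not scatter alike across the members. AD + Yip7∆S replicate 3 was the lowest of its group in 8 of 10 members, the exceptions being *grnd* and *bsk*, of which it had the highest levels of its group. It had 205 CPM of *kay*, against 296 and 306 CPM in the other AD + Yip7∆S samples, and 64.3 CPM of *hep*, against 97.1 and 101 CPM. AD + Yip7 replicate 1 and AD replicate 3 were each the lowest of their group in 6 of 10. Without AD + Yip7∆S replicate 3, *kay* was called higher in AD + Yip7∆S vs. Control (0.45, adjusted p = 0.0193) and also between AD and Control (0.36, adjusted p = 0.0206), likewise AD + Yip7 vs. Control (0.44, adjusted p = 0.0135), although this replicate belongs to neither of the last comparisons and enters them through the shared estimate of the spread. The coefficient of variation within a group ran from 1.75% (*Mekk1* in AD + Yip7) to 34.2% (*Ets21C* in AD + Yip7∆S). Counting error alone would give 1.68% and 7.07% for these.

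Per kilobase of exon, *bsk* was the most abundant member in all 4 groups and *Ets21C* the least. Lengths are the union of annotated exons, and levels between genes are compared only on this scale. *bsk* averaged 42.8 ± 0.856 CPM per kb in AD + Yip7, 47.0 ± 4.04 in AD + Yip7∆S, 42.5 ± 2.58 in AD and 47.7 ± 2.77 in Control (SD, n = 3 each). In Control, *Jra* (28.4 ± 2.92) and *kay* (28.2 ± 2.53) overlapped, *puc* followed at 23.1 ± 1.24 below both, and *wgn* (18.1 ± 0.355) and *hep* (17.1 ± 1.38) overlapped in turn. *egr* (13.3 ± 1.34), *Mekk1* (11.3 ± 0.554) and *grnd* (10.2 ± 1.41) formed a run in which neighbours overlapped. *Ets21C* was at 0.774 ± 0.0877. *puc* reached 34.0 ± 2.92 in AD + Yip7, 34.0 ± 5.67 in AD + Yip7∆S and 30.6 ± 2.35 in AD, and in these groups its range overlapped that of *Jra*.

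**Figure D3:**
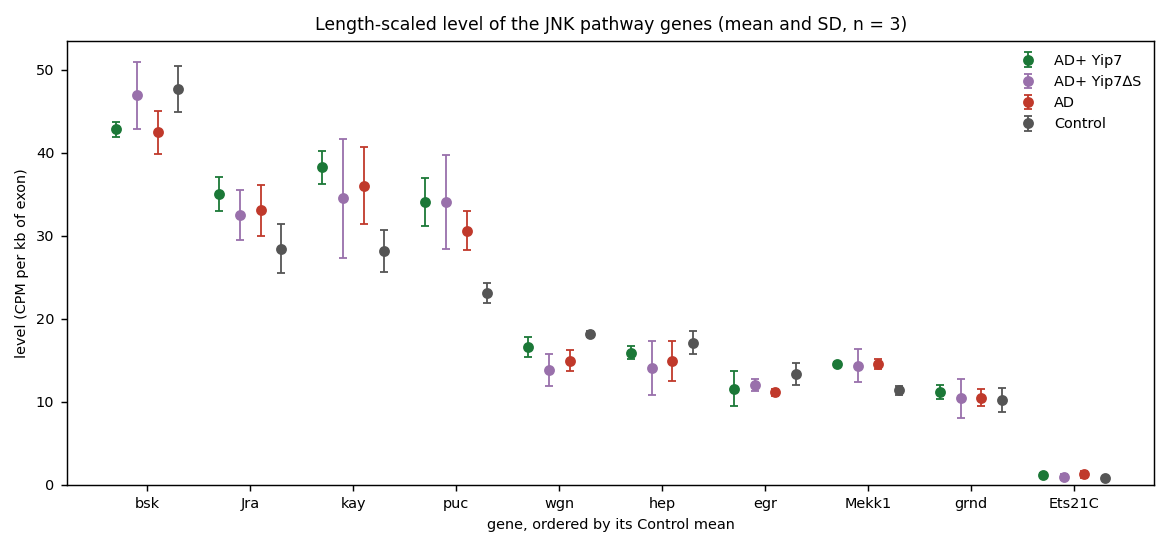
Mean level of each gene in CPM per kilobase of exon, with SD bars (n = 3), for AD + Yip7, AD + Yip7∆S, AD and Control, ordered by the Control mean. *bsk* is highest and *Ets21C* lowest in all 4 groups, and *puc* stands at 30.6 to 34.0 in the Aβ42 groups, against 23.1 in Control.

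Ratios within a sample do not depend on how the samples are scaled. The ratio of *puc* to *bsk* counts sets the feedback phosphatase against the kinase it acts on. It was 1.22, 1.22 and 0.965 in AD, against 0.783, 0.702 and 0.800 in Control, a log2 difference of 0.57 with no overlap (exact permutation test, two-sided, p = 0.1, the smallest that 3 samples against 3 can give). The difference from Control was 0.71 with Yip7 and 0.57 with Yip7∆S, also without overlap (exact p = 0.1 each). The ratio of *puc* to *hep* gave differences over Control of 0.66 for AD + Yip7, 0.85 for AD + Yip7∆S and 0.61 for AD, again apart in each (exact p = 0.1). The ratio of *wgn* to *grnd* was 1.67, 1.81 and 1.83 in AD, against 1.94, 2.24 and 2.47 in Control, a log2 difference of -0.32 (exact p = 0.1), and *kay* to *Jra* overlapped between AD and Control (0.13, exact p = 0.8). None of these 4 ratios separated AD + Yip7 or AD + Yip7∆S from AD. With 24 comparisons of ratios in this family and 0.1 as the smallest p, none could pass a threshold of 0.05.

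**Figure D4:**
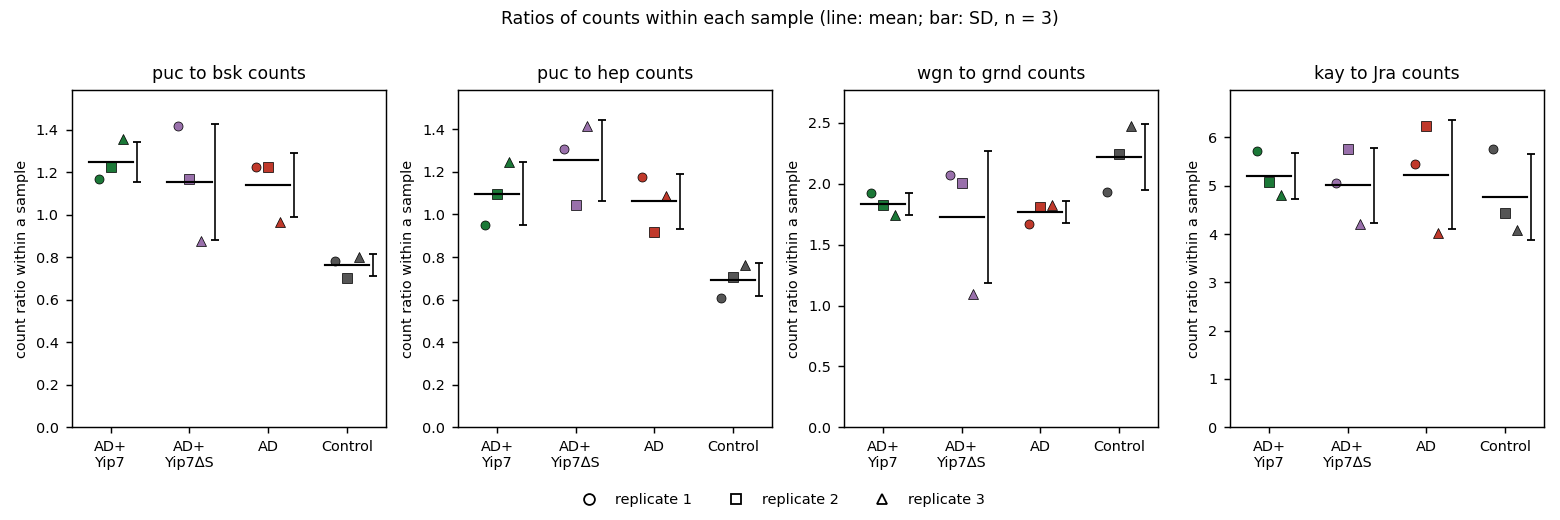
Ratios of counts within each sample for 4 gene pairs, on linear axes that start at 0, with group means as lines and SD as bars (n = 3). The *puc* to *bsk* and *puc* to *hep* ratios of the 9 Aβ42 samples lie above those of the 3 Control samples, and the *kay* to *Jra* ratios overlap.

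The wider pathway was read from fixed lists, whose counts in AD vs. Control stand against 26.0% of all tested genes called (14.4% higher, 11.6% lower) and 38.4% with an unadjusted p under 0.05. Of 7 further upstream kinases (*msn*, *slpr*, *Tak1*, *wnd*, *Ask1*, *Mkk4* and *Tab2*, the last a partner of Tak1), 0 were called in AD vs. Control in edgeR, 1 had an unadjusted p under 0.05, and all 7 estimates were below 0 with a median log2 fold change of -0.16, against -0.01 over all tested genes. AD replicate 3 was the lowest AD sample for *msn*, *slpr*, *wnd*, *Ask1* and *Mkk4*, but not for *Tak1* and *Tab2*. For example, *msn* had 153, 172 and 114 CPM in AD, against 159 to 167 CPM in Control. *Mkk4* had 95.6, 102 and 71.9 CPM in AD, against 88.3 to 119 CPM in Control. AD lay wholly below Control for *slpr* and *Ask1*. Of 4 negative regulators other than *puc*, 0 were called, 1 had an unadjusted p under 0.05, and the median was -0.10. Without AD + Yip7∆S replicate 3, 4 genes of the wider lists were called lower in AD, against 1 with all samples. The share of all tested genes called in that fit is not given here. On leaving out a sample, calls among all tested genes ran from 1910 to 3304.

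Of 8 adaptors, GTPases and scaffolds, *POSH* alone was called in AD vs. Control, against 14.4% of all tested genes called higher. *POSH*, a scaffold that assembles JNK signaling complexes, had 27.8, 29.2 and 28.2 CPM in AD, against 15.5, 15.8 and 15.9 CPM in Control (log2 fold change 0.85, SE 0.11, adjusted p = 0.000132). Its level was 26.3 to 29.0 CPM in AD + Yip7 and 24.6 to 33.5 CPM in AD + Yip7∆S, and it was called against Control in both (0.83 and 0.87). The scatter within groups was small beside this shift, and the 3 calls held in 21 of 21 alternative settings each. Opposite-strand exons of *UQCR-6.4* cover 7.16% of the *POSH* exons. *Rac1*, a small GTPase, was called in AD + Yip7∆S vs. Control (0.25, adjusted p = 0.0409), a call that held in 7 of 21 settings, and it was 84.9 to 85.6 CPM there, against 67.9 to 75.9 CPM in Control.

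Of 11 listed targets of JNK and AP-1, 10 could be tested (*upd1* was too scarce) and 4 rose in AD, against 14.4% of all tested genes, with a median log2 fold change of 0.65 over the 10, against -0.01 over all tested genes. *Gadd45*, a stress and DNA damage response gene, had 32.8, 33.2 and 34.7 CPM in AD, against 17.8, 16.7 and 15.8 CPM in Control (1.00, SE 0.18, adjusted p = 0.00126). *GstD1*, a glutathione S-transferase of the oxidative stress response, had 375, 341 and 453 CPM in AD, against 243, 245 and 247 CPM in Control (0.67, SE 0.12, adjusted p = 0.00178). *Mmp1*, a secreted matrix metalloproteinase, had 79.3, 80.3 and 72.3 CPM in AD, against 60.5, 50.9 and 54.9 CPM in Control (0.48, SE 0.10, adjusted p = 0.00359). *upd3*, a cytokine of the JAK/STAT pathway, was near the limit of counting, with 1.76, 1.09 and 1.38 CPM in AD and 0.398, 0.0966 and 0.0240 CPM in Control (3.02, SE 0.61, adjusted p = 0.00314). Its Control level rested on 16, 4 and 1 counts, and the log2 fold change was 4.49 without Control replicate 1 and 2.50 without Control replicate 3. These 4 calls held in every alternative setting in which the gene was tested. *upd3* and *Gadd45* also respond to pathways other than JNK.

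With Yip7 added, these targets were not called against AD in either group. The levels nonetheless did not all lie alike. Midgut marker sums also differed, at 231.9 to 299.0 CPM in AD, 5.59 to 86.9 CPM in AD + Yip7 and 5.16 to 12.1 CPM in AD + Yip7∆S. Their part in the target levels was not tested. *Gadd45* was 19.9, 19.9 and 23.6 CPM in AD + Yip7 and 31.0, 29.2 and 17.1 CPM in AD + Yip7∆S, against 32.8 to 34.7 CPM in AD. *upd3* was 0.503 to 0.808 CPM in AD + Yip7 and 0.267 to 0.648 CPM in AD + Yip7∆S, against 1.09 to 1.76 CPM in AD. *Mmp1* was 86.3, 100 and 97.4 CPM in AD + Yip7 and 84.1, 78.0 and 72.2 CPM in AD + Yip7∆S, against 72.3 to 80.3 CPM in AD. *GstD1* was 327 to 340 CPM in AD + Yip7 and 292 to 379 CPM in AD + Yip7∆S, against 341 to 453 CPM in AD. Log2 fold changes of AD + Yip7 against AD were -0.67 for *Gadd45* (adjusted p = 0.0825), -1.11 for *upd3* (0.402), 0.29 for *Mmp1* (0.197) and -0.235 for *GstD1* (0.458). For AD + Yip7∆S they were, in the same order, -0.38 (0.322), -1.65 (0.167), 0.02 (0.961) and -0.27 (0.315). In the target list, 3 of 10 genes had an unadjusted p under 0.05 in each of these comparisons, against 13.1% of all tested genes with Yip7 and 15.1% with Yip7∆S, and 0 passed adjustment in edgeR, against 1.81% and 1.85%. Against Control, *Mmp1* was called in both Yip7 groups, at 0.77 (adjusted p = 0.000212) for the full-length protein and 0.49 (adjusted p = 0.00383) for Yip7∆S, *GstD1* in both (0.44, adjusted p = 0.0316, and 0.40, adjusted p = 0.0395), and *Gadd45* in AD + Yip7∆S (0.62, adjusted p = 0.0256). The *Mmp1* calls held in 21 of 21 settings each. The *GstD1* call held in 14 of 21 settings in AD + Yip7, where leaving out any of the 6 samples ended it, and in 10 of 21 settings in AD + Yip7∆S, where the highest adjusted p was 0.141, without AD + Yip7∆S replicate 3. The *Gadd45* call held in 16 of 21 settings and was lost without AD + Yip7∆S replicate 1 (adjusted p = 0.0996), AD + Yip7∆S replicate 2 (0.0871), Control replicate 2 (0.0679) or Control replicate 3 (0.0886), and with edgeR on the 6 samples of the comparison (0.0746).

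**Figure D5:**
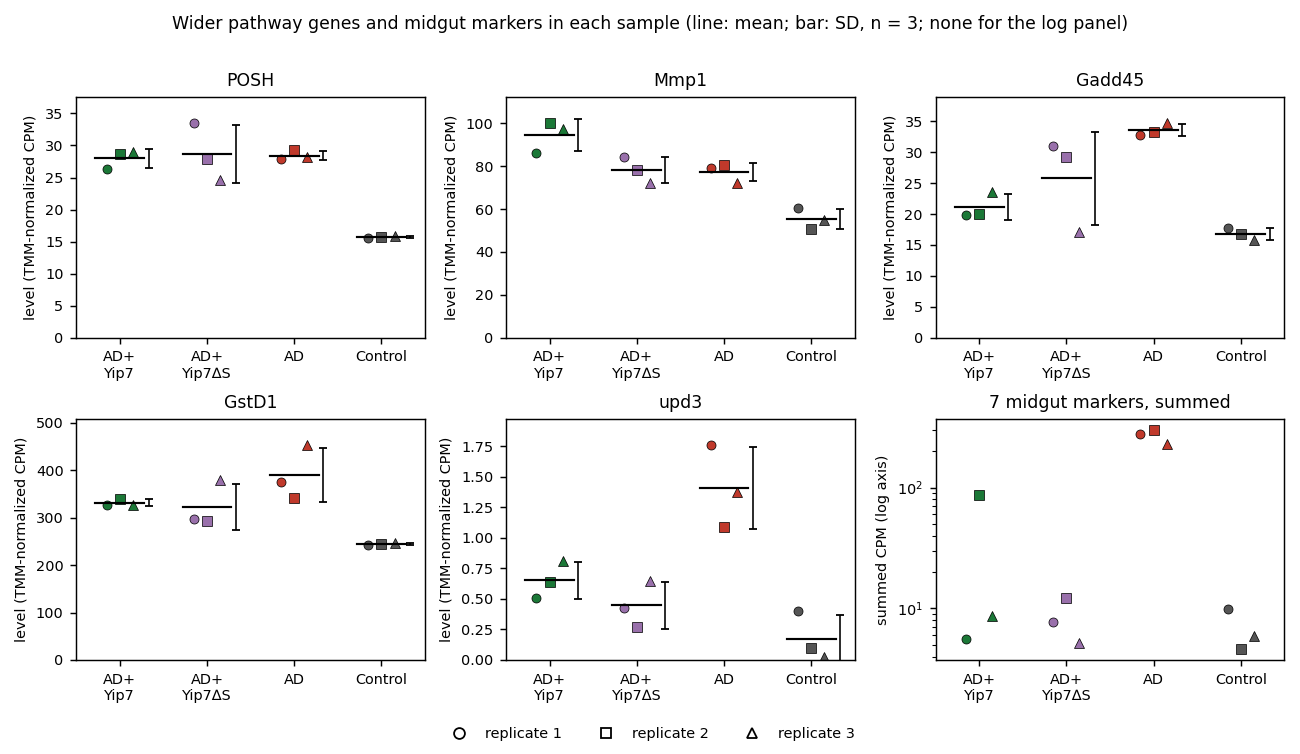
Levels of *POSH*, *Mmp1*, *Gadd45*, *GstD1* and *upd3* in TMM-normalized CPM on linear axes, and the summed level of 7 midgut markers on a log axis, in each sample of AD + Yip7, AD + Yip7∆S, AD and Control (lines are means and bars SD, n = 3, on the linear panels). *POSH* lies at 24.6 to 33.5 CPM in the Aβ42 groups, against 15.5 to 15.9 CPM in Control. The midgut sum is 231.9 CPM or more in AD and 86.9 CPM or less in the other groups.

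In the parallel p38 branch, 1 of 6 genes was called between AD and Control, against 26.0% of all tested genes. *p38c*, an atypical p38 kinase, was lower, with 0.679, 1.09 and 1.31 CPM in AD, against 2.44, 1.74 and 2.13 CPM in Control (-1.03, SE 0.31, adjusted p = 0.025). Its log2 fold change over Control was -1.25 in AD + Yip7 (adjusted p = 0.0168) and reached -1.51 for Yip7∆S (adjusted p = 0.0048). In AD vs. Control the call was lost without AD replicate 1 (adjusted p = 0.0928), without Control replicate 1 (0.0864) or without Control replicate 3 (0.0672). Against Control, the AD + Yip7 call was lost without AD + Yip7 replicate 2 (0.081), Control replicate 1 (0.0581) or Control replicate 3 (0.0526). No gene of the wider lists passed in edgeR when either Yip7 group was set against AD, where 5 of 35 genes of these lists with Yip7 and 4 of 35 with Yip7∆S had an unadjusted p under 0.05, against 13.1% and 15.1% of all tested genes.

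The genes whose levels followed *puc* most closely over the 12 samples were *obe*, *Clbn*, *mus201*, *Atg1* and *CG43867*. Likeness was the root mean square difference of log2 levels, each gene centered on its own mean, and the values were 0.0727, 0.0761, 0.0811, 0.0924 and 0.0954, against a median of 0.338 over all tested genes. The 12 samples share their groups, so closeness over them includes the difference between the Aβ42 groups and Control. None of the other 9 members was among these 5.

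In the Ensembl annotation (BDGP6.54, the coordinates of dm6, the build the labels name), *puc* lies on chromosome 3R from 8105332 to 8122294, forward strand, with 2 transcripts, and *Mekk1* on 3R from 18733106 to 18743594, reverse strand, with 2 transcripts. *kay* lies on 3R from 29765995 to 29794113 with 5 transcripts, and the gene-level counts do not separate them. *bsk* (10247502 to 10250501), *grnd* (18485417 to 18488021) and *Ets21C* (544925 to 552923) lie on 2L, *wgn* (18624042 to 18634908) and *hep* (13079205 to 13090434) on X, and *egr* (10078366 to 10084210) and *Jra* (10096480 to 10098556) on 2R. *egr* and *Jra* are close neighbors, both on the forward strand, and their estimates in AD vs. Control had opposite signs, -0.25 and 0.22. All 10 members are annotated as protein coding.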

How the data were processed

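RNA-seq read counts of heads from 12 samples were used. According to the study's methods, the authors cleaned reads by fastp, with alignment by HISAT2 and counting per gene by HTSeq-count. The submitters' processing notes name dm6, FastQC, HISAT2 2.1.0, StringTie 1.3.1 and DESeq2 1.36.0, and the strand setting of the counting is not given in the sources used here. The table that the authors deposited holds raw counts of 14162 genes, without normalization. Groups follow the genotype in the labels. The labels mention dissected brains beside the tissue head, and name a sequencing provider other than that of the methods.

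The analysis used edgeR 4.0.16 under R 4.3.3. Genes kept by filterByExpr (10577) were normalized by TMM, and all 12 samples entered 1 quasi-likelihood fit (glmQLFit and glmQLFTest) of the 4 groups, in which the AD and Control comparisons share samples. The 6 pairwise comparisons were tested with Benjamini-Hochberg adjustment within each and a threshold of 0.05, with no fold threshold. Levels are CPM, and 2 was the prior count for log2 levels. Each sample had at least 38064884 counts.

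Alternatives were DESeq2 1.42.0 with all 12 samples, either tool with the 6 samples of a comparison, limma-voom (limma 3.58.1), DESeq2 size factors, upper quartile scaling, omitting the count filter, requiring 10 counts in every sample, a replicate block, and leaving out each sample. The genes named are the 10 members, each gene of the wider lists called in a comparison (except 1 that is not reported here), and the 5 genes nearest to *puc*. *yip7* was added as a check of the labels after its values were known. The members and lists were chosen with earlier results of these data known. Promoter and protein sequences were not used here, so a planned motif search was not run.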

Additional observations from a re-analysis of the deposited data

How the results depend on the processing

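The 60 fold changes of the 10 members (10 genes in 6 comparisons) were recomputed under 21 alternatives, 12 of which leave out a sample. Of the 1260 values, 1158 kept their direction and side of the threshold, 24 lost a call, 22 gained one and 56 changed sign, all 56 for fold changes that were not called. Of the 356 values of the 17 called results in the wider lists, 57 lost the call and 0 changed sign. For *upd3*, the alternative with at least 10 counts in every sample gave no value.

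Called higher in AD vs. Control were 2 members, 4 with DESeq2 on the 6 samples, 4 with upper quartile scaling, and 0 to 3 on leaving out a sample. Called lower there were 0 members, 1 with DESeq2 on the 6 samples, and 0 to 1 on leaving out a sample. In AD + Yip7 vs. Control, 2 were higher, 5 with DESeq2 and 4 with edgeR on the 6 samples, and 1 to 3 on leaving out a sample. In AD + Yip7∆S vs. Control, 2 were higher (1 with edgeR on the 6 samples, 1 to 3 on leaving out a sample) and 1 was lower (0 with edgeR on the 6 samples, 0 to 1 on leaving out a sample). Wider-list genes called lower in AD vs. Control numbered 1, 2 with DESeq2 on all 12 samples, 2 with the replicate block, and 0 to 4 on leaving out a sample. The cause was not tested for any of these. Calls among all tested genes moved too. They ran from 1910 to 3304 in AD vs. Control on leaving out a sample. In AD + Yip7 vs. Control the range was 934 to 1831, and in AD + Yip7∆S vs. Control 1363 to 2317. DESeq2 on the 6 samples of AD + Yip7 vs. Control called 2550 of 10237 genes, against 1541 of 10577. The share for the other settings is not given here, so these counts are not read as results about the listed genes.

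Fold changes near 0 changed sign. In AD + Yip7 vs. AD, *Mekk1* was -0.0228 with at least 10 counts in every sample, -0.0033 with DESeq2 on all 12 samples, -0.0009 with DESeq2 on the 6 samples, -0.0033 with DESeq2 size factors, -0.0139 without a count filter and -0.0563 with upper quartile scaling. *bsk* was -0.0147 with at least 10 counts, -0.0058 without a filter and -0.0499 with upper quartile scaling, and *egr* was -0.0057 with the last. In AD + Yip7 vs. AD + Yip7∆S, *puc* was -0.0009 with at least 10 counts, -0.0004 with edgeR on the 6 samples, -0.0012 without a filter and -0.0011 with upper quartile scaling.

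Leaving out a sample gave these ranges of the log2 fold change where the sign changed. In AD vs. Control, *grnd* ran from -0.0443 to 0.1641. In AD + Yip7 vs. AD, *bsk* ran from -0.0175 to 0.0570, *egr* from -0.0942 to 0.1445, *Ets21C* from -0.3122 to 0.1532, *kay* from -0.0180 to 0.1673 and *Mekk1* from -0.0238 to 0.0344. In AD + Yip7∆S vs. AD, *grnd* ran from -0.2283 to 0.0857, *hep* from -0.1964 to 0.0868, *Jra* from -0.0948 to 0.0409, *kay* from -0.1695 to 0.0881 and *Mekk1* from -0.1268 to 0.0613. In AD + Yip7 vs. AD + Yip7∆S, *egr* ran from -0.2035 to 0.0514, *hep* from -0.0027 to 0.2909, *kay* from -0.0108 to 0.2509, *Mekk1* from -0.0703 to 0.1294 and *puc* from -0.1040 to 0.1332. In AD + Yip7∆S vs. Control, *bsk* ran from -0.1020 to 0.0160, *Ets21C* from -0.0876 to 0.3927 and *grnd* from -0.1870 to 0.1431.

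Whether the replicate numbers pair the samples was not settled. Of 18 same-numbered pairs, 5 deviated together at a correlation over 0.1 (range -0.39 to 0.29), all 5 of them between Aβ42 groups. Pairs with Control ran from -0.39 to 0.06, and 6 of 12 samples were closest to their own number. A replicate block left the member counts of AD vs. Control at 2 higher and 0 lower and added *kay* in AD + Yip7 vs. Control (0.44, adjusted p = 0.031).

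Among all tested genes, AD + Yip7 vs. AD gave 191 calls, against 449 with DESeq2 on all 12 and 520 on the 6 samples. AD + Yip7∆S vs. AD gave 196, against 495 and 359 with DESeq2 and 120 with edgeR on the 6 samples. AD + Yip7 vs. AD + Yip7∆S gave 7, against 135 and 131 with DESeq2 and 16 without a filter, and AD + Yip7 vs. Control gave 1541, against 2550 with DESeq2 on the 6 samples. With 3 samples a group, *Ets21C*, with 139 to 345 counts, had the widest intervals of the members.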
